A study of Mus musculus with 8 samples.

Results

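The genes described here serve MHC class I antigen presentation. They were chosen by name as a list of 10 genes, and a value was found for 9 of them among the 12589 rows of the deposited expression table. The 9 are the heavy chains H2-K1 and H2-D1, the light chain B2m, the peptide transporter subunits Tap1 and Tap2, the loading chaperone Tapbp, the proteasome subunits Psmb8 and Psmb10, and the aminopeptidase Erap1. No value was found for Psmb9, which is not analysed here. RNA-seq was performed on mSSC-YFP, a stromal cell line derived from mouse spleen that carries a yellow fluorescent protein. The sample labels list 4 cultures treated with BMS493, an inhibitor of retinoic acid (RA) signaling, and 4 treated with its vehicle DMSO, each for 48 h. The methods give 1 μM for BMS493 on stromal cells, and the line is a single immortalized one. The study asked how stromal transcription responds when RA-signaling is blocked.

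The values used here are means of log2 normalized expression that the authors took over their samples, 1 mean for each gene. The header of these values names no sample or group, so each value is taken to pool vehicle and BMS493 cultures. The level in each culture, the spread between cultures and the depth of each library are unknown here, so that no SD, no interval and no test of the treatment is given, and neighbouring levels cannot be said to differ beyond an error. Levels of different genes were compared after division by length, as log2 expression per kilobase (kb) of exon, and orders of genes refer to that length unless another is named. A percentile is the percentage of genes with a lower value, with ties counted in part. For levels per kb, all genes means those with a length. Over the 12374 genes with a length the median was 2.85 log2 expression per kb, with quartiles at 1.42 and 4.15.

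MHC class I molecules show peptides from inside the cell to CD8 T cells at the cell surface. Proteins are cut by the proteasome, the fragments are carried into the endoplasmic reticulum (ER) by the TAP transporter, trimmed by ER aminopeptidases, and loaded with the help of tapasin onto a heavy chain paired with β2-microglobulin. Interferons are known to raise the transcription of most of these genes, and nearly all nucleated cells, stromal cells included, express them.

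The labelled cell type was checked on marker genes. All 9 stromal markers examined had a value, from 1.92 log2 expression per kb for Pdgfra, a platelet-derived growth factor receptor, to 10.57 for the type I collagen chain Col1a1. No value was found for any of the 10 blood cell markers examined, which included the pan-leukocyte gene Ptprc and the B-cell receptor chain gene Cd79a. Of 5 endothelial and epithelial markers, 3 had a value, and the highest of these per kb was 0.58 for the keratin gene Krt8, against -0.34 for Kdr and -2.17 for Pecam1. Not divided by length, Kdr was the highest of the 3, with a mean log2 expression of 2.83 against 1.55 for Krt8 and 0.47 for Pecam1. Neither Cdh5 nor Epcam had a value. A gene without a value is not analysed here, and its level is not known.

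Sequences upstream of the heavy and light chain genes are shown first, because these genes are known to share promoter elements. They are taken from RefSeq on GRCm38.p6, run 5′ to 3′ in the direction of the gene, and cover 250 bases before and 50 bases after a transcription start. RefSeq promoters were matched for 9 of the 10 listed genes, Tap2 being the exception. H2-K1 had a further RefSeq window, chr17:34000284-34000583, which is not printed. Capitals mark 4 motifs searched on both strands, namely GGGGA and TCCCC with 1 base between them (a κB-like inverted repeat), GAAA repeated after 2 bases (a core of the interferon-stimulated response element), CCAAT (the NF-Y box) and TGACG (a core of CREB and X2-box sites). No 2 of these matches overlapped in the sequences printed.
H2-K1, chr17:34000298-34000597, minus strand: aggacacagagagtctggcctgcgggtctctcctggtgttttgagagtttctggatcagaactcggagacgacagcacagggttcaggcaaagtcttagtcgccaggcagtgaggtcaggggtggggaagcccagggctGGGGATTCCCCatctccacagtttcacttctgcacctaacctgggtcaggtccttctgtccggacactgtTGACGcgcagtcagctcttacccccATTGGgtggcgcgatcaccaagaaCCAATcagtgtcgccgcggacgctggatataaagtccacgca
H2-D1, chr17:35262844-35263143, plus strand: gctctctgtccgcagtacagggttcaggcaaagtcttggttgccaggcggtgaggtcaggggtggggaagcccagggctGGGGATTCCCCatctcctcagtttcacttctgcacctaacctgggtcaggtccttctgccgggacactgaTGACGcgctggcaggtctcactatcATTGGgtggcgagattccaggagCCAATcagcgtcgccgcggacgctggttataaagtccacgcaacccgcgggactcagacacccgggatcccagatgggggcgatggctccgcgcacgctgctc
B2m, chr2:122147437-122147736, plus strand: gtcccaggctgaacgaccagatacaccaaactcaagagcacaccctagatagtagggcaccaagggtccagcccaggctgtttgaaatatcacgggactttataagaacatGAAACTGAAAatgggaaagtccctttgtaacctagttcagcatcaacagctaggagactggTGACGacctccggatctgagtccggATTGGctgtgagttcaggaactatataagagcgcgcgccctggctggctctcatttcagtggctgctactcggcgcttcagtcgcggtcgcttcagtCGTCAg
Tap1, chr17:34187306-34187605, plus strand: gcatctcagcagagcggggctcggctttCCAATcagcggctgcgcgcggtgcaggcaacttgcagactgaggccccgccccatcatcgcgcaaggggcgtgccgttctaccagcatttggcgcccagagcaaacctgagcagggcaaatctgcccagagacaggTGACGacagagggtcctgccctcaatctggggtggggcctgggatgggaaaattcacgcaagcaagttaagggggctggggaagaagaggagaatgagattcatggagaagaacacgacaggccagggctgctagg

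Both heavy chain promoters held the κB-like repeat, which was found in promoters of 15 genes in all and in 0.0487% of the 32851 promoter sequences. In the other matched promoters of the list these letters were not found. The H2-K1 and H2-D1 windows each held 1 TGACG followed by CCAAT on the reverse and then on the forward strand. B2m held TGACG and a reverse CCAAT in the same order, with a further TGACG on the reverse strand after its start. Relative to the RefSeq start, the forward CCAAT began at base 9 in the printed H2-K1 window and at base -53 in H2-D1. The letters TATAAA began at base 36 in that H2-K1 window, after the start, and at base -26 in H2-D1. TGACG was found in 20.8% and CCAAT in 37.4% of all promoters. The repeated GAAA, which 3.44% of all promoters held, was found in the B2m promoter from base -139 and in that of Erap1 from base -4, counted from the RefSeq start. The hexamer AGGTCA, the core of RA receptor binding sites, was found in the promoters of H2-K1, H2-D1 and Psmb10 and in 16.3% of all promoters. A direct repeat of AGGTCA with 5 bases between the copies was found in none of the 9 matched genes and in 0.00913% of all promoters. Only exact words were searched, so a promoter without a match can still hold a variant form of the same element. These matches describe letters only, and binding was not measured.

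By the RefSeq starts, the printed Tap1 window also covers most of the upstream region of Psmb9. The RefSeq windows of both genes overlap, as they lie at chr17:34187306-34187605 and chr17:34187281-34187580 on opposite strands. In the annotation (GENCODE M21 on GRCm38, which is the mm10 assembly), 7 of the 10 listed genes lie on chromosome 17, within the MHC. There Psmb9 spans chr17:34181987-34187764 on the minus strand, so that it overlaps the start of Tap1 and the printed window lies within it. By these annotated starts, which differ from those of RefSeq, Tap1 and Psmb9 were 0.211 kb apart. Psmb8 started 9.96 kb beyond Psmb9, and Tap2 started 5.81 kb beyond Psmb8. Of these neighbours, Tap1 stood at 1.45, Tap2 at 0.54 and Psmb8 at -1.17 log2 expression per kb.

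**Figure D1:**
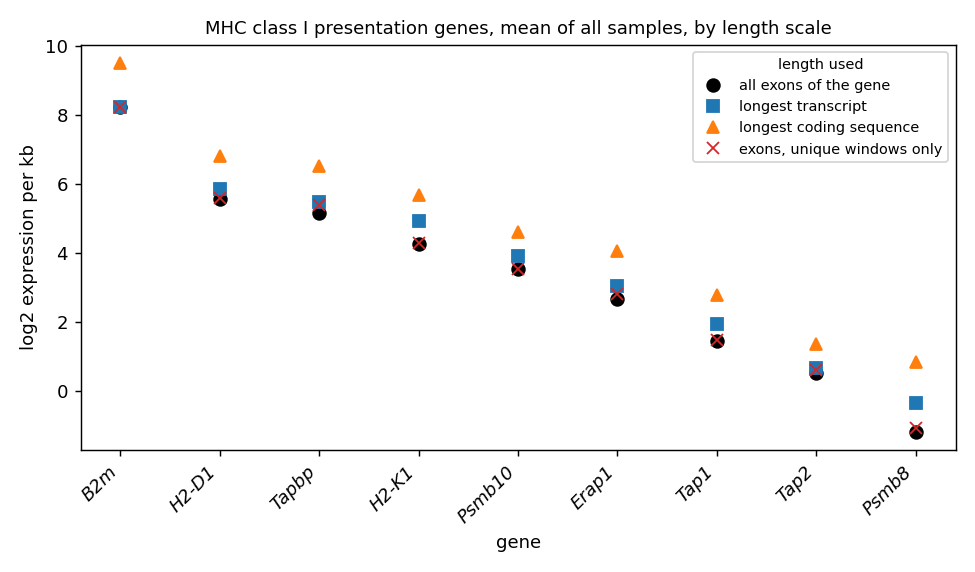
Log2 expression per kb (vertical axis) of the 9 presentation genes with a value (horizontal axis), each symbol being the mean over all samples divided by 1 of 4 lengths. B2m is highest and Psmb8 lowest on every scale, and the order of the 9 genes is the same on all 4.

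B2m encodes β2-microglobulin, the invariant light chain of every class I molecule. It lies at chr2:122147686-122153083 on the plus strand and had a mean log2 expression of 8.03. Per kb it reached 8.24 on the log2 scale, percentile 99.2 of all genes, and was the highest of the list.

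The classical heavy chains form the peptide groove. H2-D1 (chr17:35262730-35267499, plus strand) had a mean log2 expression of 6.93 and 5.56 per kb, at percentile 91.3. For H2-K1 (chr17:33996017-34000347, minus strand) the mean was 5.84, with 4.28 per kb at percentile 77. H2-D1 thus stood 1.28 above H2-K1 in log2 expression per kb, a ratio of 2.42. With the longest transcript as length the difference was 0.92, and with the longest coding sequence it was 1.12. The light chain stood above both, by 3.96 over H2-K1 and by 2.69 over H2-D1 in log2 expression per kb. On the linear scale B2m was 4.56 times the sum of both heavy chains per kb, and between 3.44 and 4.47 times with the other lengths tried.

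Class I heavy chain genes are near copies of each other, and only uniquely mapped reads had been counted. The coding sequences of H2-K1 and H2-D1, of 1107 and 1086 bases, were identical at 91.5% of 1077 aligned bases. Their longest identical stretch was 91 bases, shorter than the 100-base reads, and no window of 100 bases was found in transcripts of both genes. The stretch lies at bases 738 to 828 of the H2-K1 coding sequence and at bases 747 to 837 of that of H2-D1. It is shown as the longest run without a mismatch between these coding sequences. Exons outside them were not aligned, and mismatches per read were not counted. Capitals mark the identical stretch, and the flanks are 40 bases on each side.
H2-K1: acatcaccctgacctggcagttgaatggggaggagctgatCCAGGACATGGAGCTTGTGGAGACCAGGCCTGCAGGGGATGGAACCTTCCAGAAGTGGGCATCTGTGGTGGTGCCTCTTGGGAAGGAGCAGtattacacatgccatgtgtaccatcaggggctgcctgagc
H2-D1: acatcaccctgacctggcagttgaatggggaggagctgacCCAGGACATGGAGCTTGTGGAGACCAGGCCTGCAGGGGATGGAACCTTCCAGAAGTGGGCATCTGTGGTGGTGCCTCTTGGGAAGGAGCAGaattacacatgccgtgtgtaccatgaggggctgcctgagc

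Of all 100-base windows of the H2-K1 transcripts, 99% were found in no other gene, and the rest were shared with H2-Q10, H2-Q5 or H2-Q7. For H2-D1 96.4% were unique, and H2-Q1 held the most of the others, 85 windows. Scaling by unique windows moved H2-K1 by 0.01 and H2-D1 by 0.05 on the log2 scale. Windows were compared as exact matches among annotated transcripts, so that reads with mismatches and unannotated copies are not covered.

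Further heavy chains and class I-like genes mostly had lower levels. Of 19 such genes 9 had a value, with a median of 1.81 log2 expression per kb, and 2 of the 9 lay above the median of all genes. They were Fcgrt, the neonatal Fc receptor chain, at 3.96, and H2-T22, which encodes a ligand of γδ T cells, at 3.50. H2-M3, which presents formylated peptides, had 2.60. H2-T23, the mouse Qa-1 gene whose product is read by NK cell receptors, had 1.80, H2-Q4 had 0.70 and H2-T24 0.58. Among the class I-like genes the lipid-presenting Cd1d1 had 1.95, Mr1, which presents vitamin B metabolites, 1.81, and the iron regulator Hfe 0.51. Hfe was the lowest by exon length, but with the coding length it had 2.24, above H2-T24 at 1.58 and H2-Q4 at 1.99. H2-K1 and H2-D1 together made up 73.5% of the linear level per kb summed over the 7 H2 class I genes with a value, and between 69.9% and 77.5% with the other lengths. The level of H2-T22 is less certain, since 68.5% of its windows were unique and 24% were shared with an antisense transcript. Whether reads were counted by strand is not given in the sources used here.

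For the proteasome, RNA levels were compared between the interferon-inducible and the constitutive catalytic subunits, which replace each other in the 20S core. Subunit protein, proteasome composition and peptide supply were not measured. Psmb8, which encodes the chymotrypsin-like subunit β5i, lies at chr17:34197721-34201454 on the plus strand. Its mean log2 expression was 0.59, and its level per kb was -1.17 on the log2 scale, at percentile 4.14. Psmb5, its constitutive counterpart, had 5.58 log2 expression per kb. The difference was 6.75 on the log2 scale, and it was smallest, at 4.90, with the longest coding sequence as length. Psmb8 made up 0.922% of the linear sum of both subunits per kb, and 3.24% with the coding length. These shares come from means of log2 values, of which the lowest of any gene was -0.58. The precision of so weak a level as that of Psmb8, and hence of its share, is unknown here.

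Psmb10, encoding the trypsin-like subunit β2i, lies outside the MHC at chr8:105935735-105938444 on the minus strand. It had a mean log2 expression of 4.32 and 3.55 per kb, at percentile 64.1. Its counterpart Psmb7 had 5.18 per kb, a difference of 1.62 on the log2 scale. Psmb10 accordingly made up 24.5% of the linear sum of that pair, and 14.1% with the coding length. The inducible subunits were far apart from each other as well, Psmb10 standing 4.72 above Psmb8 in log2 expression per kb. No value was found for Psmb9, the counterpart of Psmb6, which had 6.45 per kb. A pseudogene shares sequence with Psmb5, of whose windows 77.8% were unique, and unique scaling widened its difference from Psmb8 to 6.99.

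**Figure D2:**
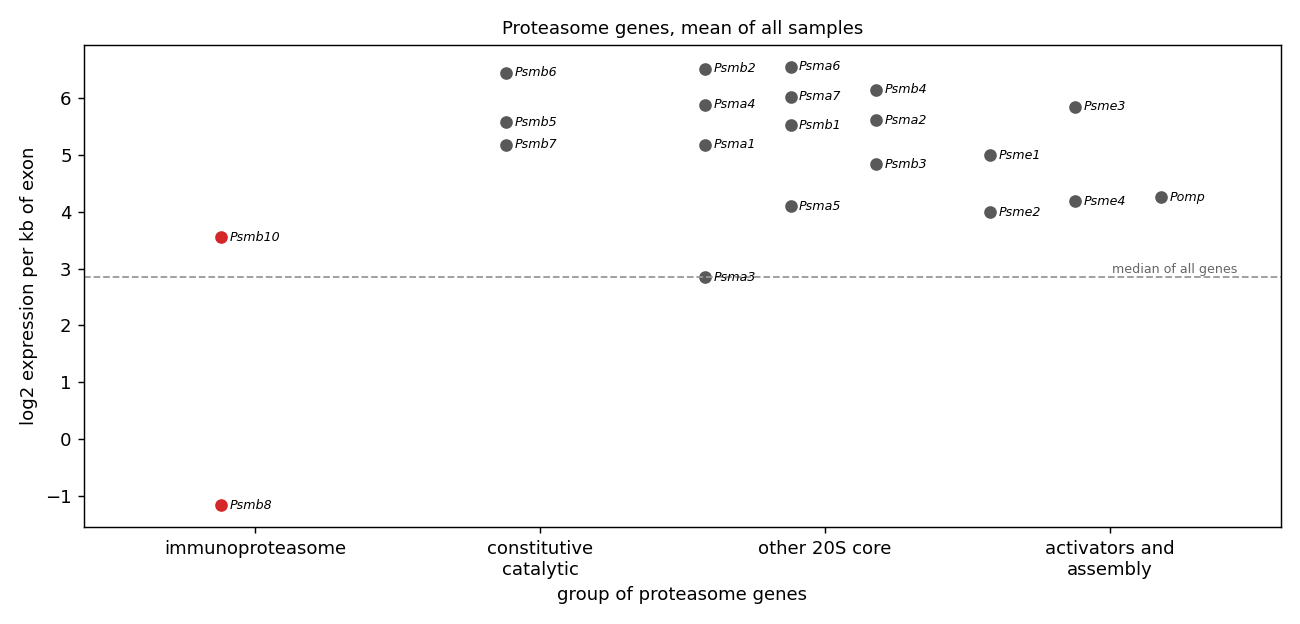
Log2 expression per kb of exon (vertical axis) of proteasome genes by group, each point being 1 gene's mean over all samples and the dashed line the median of all genes, 2.85. Psmb8 lies at -1.17 and Psmb10 at 3.55, both below the constitutive catalytic subunits at 5.18 to 6.45.

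The other 11 subunits of the 20S core, common to both forms, had a median of 5.61 log2 expression per kb, from 2.85 for Psma3 to 6.56 for Psma6. Psmb8 was therefore below every core subunit measured, whereas Psmb10 was above Psmb8 and Psma3. With the coding length Psmb10, at 4.61, was above Psmb8 alone, since Psma3 then had 5.20 and Psma5 4.97. Of the activators, the interferon-inducible PA28 subunits Psme1 and Psme2 had 31.9 and 15.9 per kb on the linear scale, the latter 3.99 on the log2 scale. The log2 difference of Psme1 minus Psme2 depended on the length. It was 1.00 with exon length, 0.28 with the longest transcript, 1.27 with the coding length and 0.71 with unique windows. Of the Psme2 windows 81.6% were unique, and 18.4% were shared with Psme2b. On the log2 scale PA28γ, encoded by Psme3, had 5.85, PA200, encoded by Psme4, had 4.19, and the assembly factor Pomp had 4.26. All 5 lay above the median of all genes.

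Transport into the ER requires a heterodimer of Tap1 and Tap2. Tap1 (chr17:34187553-34197225, plus strand) had a mean log2 expression of 3.91 and 1.45 per kb, at percentile 25.6. Tap2 (chr17:34203527-34216321, plus strand) had 2.46 and 0.54 per kb, at percentile 15.3. Both transporter genes were thus in the lower part of the expressed genes, with Tap1 0.91 above Tap2 in log2 expression per kb. With the other lengths this difference lay between 0.87 and 1.40. Coding sequences of the pair were identical at 61.4% of 2060 aligned bases, and no 100-base window was common to both.

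Tapasin, encoded by Tapbp, holds empty class I molecules at the transporter. Tapbp (chr17:33915899-33929292, plus strand) had a mean log2 expression of 7.02 and 5.16 per kb, at percentile 88. It stood 3.71 above Tap1 in log2 expression per kb, a ratio of 13.1. Its relative Tapbpl, which edits peptides outside the loading complex, had 2.87, so that tapasin was 2.29 higher on the log2 scale. In all, 85.2% of the Tapbp windows were unique, as an antisense transcript overlaps 14.7% of them. Of the 7 genes listed as acting with tapasin in ER folding and loading, Tapbpl included, 5 lay above tapasin on all 4 lengths. Calreticulin (Calr) had 8.83 log2 expression per kb, the oxidoreductase Pdia3 8.69 and calnexin (Canx) 7.59. Uggt1, the glucosyltransferase that checks the folding of glycoproteins, had 4.67 and, like Tapbpl, lay below it on all 4 lengths. All 7 genes of that list lay above the median of all genes, the lowest being Tapbpl.

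Erap1 trims peptides in the ER to the length that fits the groove. It lies at chr13:74639568-74693201 on the plus strand and had a mean log2 expression of 5.54. Per kb this was 2.67 on the log2 scale, at percentile 46.3 and close to the median of all genes. In its neighbour Cast, 10% of its 100-base windows were also found. The related aminopeptidase Lnpep, which trims peptides in endosomes, had 2.19 per kb. The log2 difference of Erap1 minus Lnpep was 0.48 with exon length and -0.34 with coding length, so that the order of these 2 genes depended on the length used.

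**Figure D3:**
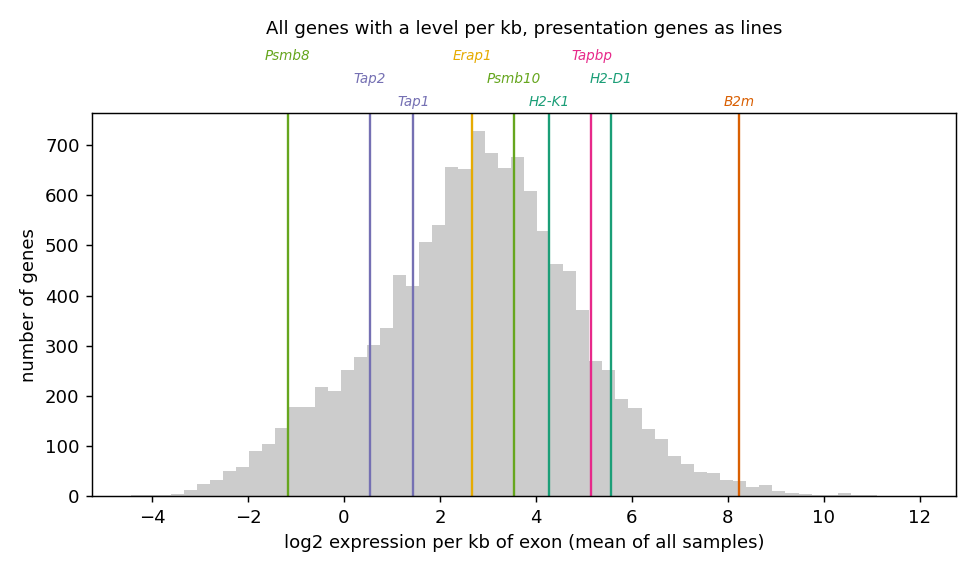
Number of genes (vertical axis) by log2 expression per kb of exon (horizontal axis) for the 12374 genes with a length, with the 9 presentation genes as coloured lines, 1 colour for each role. The genes span nearly the whole range, from Psmb8 at percentile 4.14 to B2m at percentile 99.2.

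Across the steps of the pathway the measured genes thus covered a wide range. The median of the 9 was 3.55 log2 expression per kb, and 5 of the 9 lay above the median of all genes. The genes of the surface complex and tapasin lay at percentile 77 or higher. Those of the transporter and Psmb8 lay at percentile 25.6 or lower, and Psmb10 and Erap1 lay between. These percentiles are per kb. Not divided by length, H2-K1 lay at percentile 67.1, Erap1 at 60.8, Psmb10 at 38.4 and Tap1 at 32.1. The groups thus kept their order, but Erap1 then stood above Psmb10. From B2m to Tap1 the difference was 6.79 on the log2 scale, a ratio of 111.

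Genes of MHC class II, which present peptides to CD4 T cells in professional antigen-presenting cells, served for comparison. Of 12 such genes 3 had a value, and none of the 3 lay above the median of all genes. For H2-Ea, among the 12, no gene was matched in the annotation under that symbol. The invariant chain gene Cd74 had -0.48 log2 expression per kb, H2-DMa, a chain of the peptide exchange factor DM, -1.22, and H2-DMb1, the other chain of DM, 0.96. No value was found for H2-Aa, H2-Ab1 or H2-Eb1, the chains of the class II molecules, or for their activator Ciita.

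**Figure D4:**
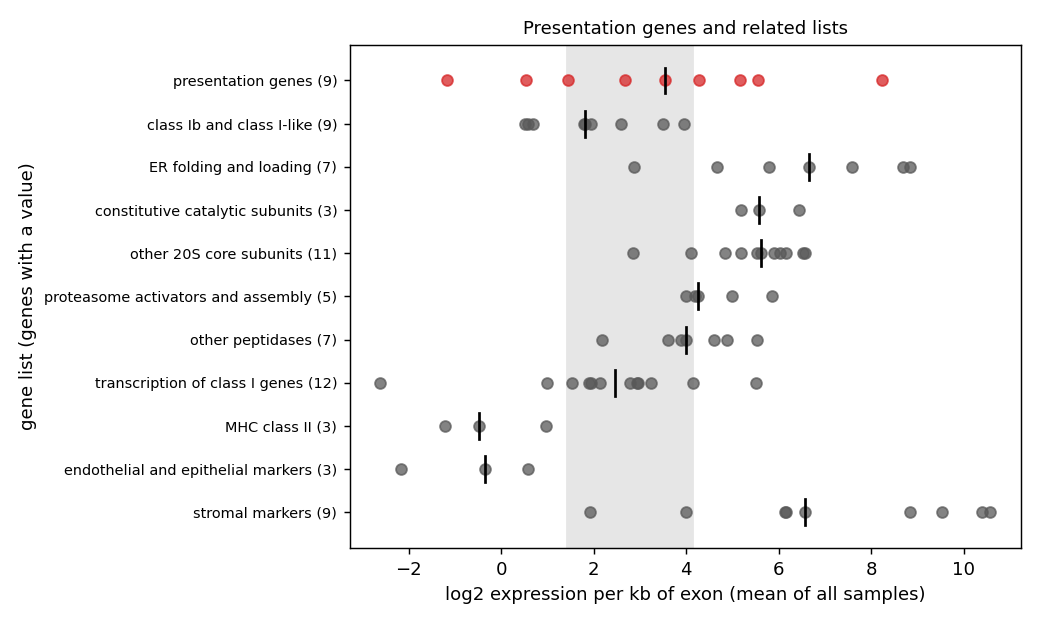
Log2 expression per kb of exon (horizontal axis) for the presentation genes (red) and related gene lists (grey), 1 point for each gene with a value, with the median of each list as a black bar and the quartiles of all genes (1.42 to 4.15) shaded. The presentation genes spread from -1.17 to 8.24, while the 7 ER folding and loading genes lie from 2.87 to 8.83 and the 3 class II genes from -1.22 to 0.96.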

How the data were processed

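The submitters' processing notes name FastQC, STAR 2.3.0e, limma and the builds mm10 and GRCm38. Per the paper's methods, the authors read stranded mRNA libraries from 1 end over 100 cycles, aligned them to mm10, counted reads with a unique position on Ensembl genes (Rsubread) and applied the weighted trimmed mean of M-values. The extraction text of the labels describes array and qPCR steps instead. The authors deposited 1 table with a mean log2 normalized expression per gene, written with decimal commas, from -0.58 to 13.29. The sum of 2 raised to these values was 989369, about what a CPM scale would give, and no division by length is stated. Its other 4 columns hold the authors' own comparison of BMS493 and DMSO (log2 fold change, t, p-value and adjusted p-value) and were not used. With no values per culture, the depth of each library is unknown, and the limma test foreseen for values per sample could not be run.

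Symbols were matched to GENCODE M21, 11771 directly and 603 through 1 older RefSeq symbol, 98.3% of the rows. A symbol listed 2 times was left out. The level per kb is the log2 value minus the log2 of the length of all exons merged. Alternatives were the longest transcript, the longest coding sequence, exons scaled by the share of 100-base windows found in no other gene, and, for percentiles, genes whose mean log2 value was 1 or more. Coding sequences were aligned globally with Biopython 1.88 (match 2, mismatch -1, gap opening -5, extension -1) in Python 3.11.15. Scripts were tested on simulated data. The members and the gene lists were chosen with earlier results of these data known. Genes named are all members, the constitutive counterparts Psmb5, Psmb6 and Psmb7, the highest and lowest of each other list and all genes of lists with at most 5 values. Further genes of the lists were named after their values were seen. Some genes of these lists are not reported here.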

Additional observations from a re-analysis of the deposited data

How the results depend on the processing

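No paired analysis was possible because 1 mean over all samples is all that is used for each gene, and for the same reason no culture could be left out and no count normalization could be changed. The order of the 9 presentation genes was the same with each of the 4 lengths. Not divided by length, Tapbp stood above H2-D1 and Erap1 above Psmb10. Their median of 3.55 log2 expression per kb became 3.93 with the longest transcript and 4.61 with the longest coding sequence, a shift that follows from the shorter length, and it did not move with unique windows. Psmb5 stood 6.75 above Psmb8 on the log2 scale, and 5.92, 4.90 and 6.99 above it with the longest transcript, the coding length and unique windows. Psmb7 stood 1.62 above Psmb10, and 1.51, 2.61 and 1.72 with the same lengths. The largest shift of a gene of the list was 2.03, for Psmb8 with the coding length. By the mean log2 value not divided by length, the median percentile of the presentation genes was 60.8 among all genes, and 61.3 among the 11733 genes whose mean log2 value was 1 or more, which leaves out Psmb8. Weak genes have the least counts behind them, and how precise the levels of Psmb8 and Tap2 are is unknown here.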

Other observations

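Genes that drive class I transcription were examined as a further list, and all 12 had a value. Their median was 2.46 log2 expression per kb, and 5 of the 12 lay above the median of all genes. Nlrc5, the known transactivator of class I genes, had the lowest level of the list, with a mean log2 expression of 0.47 and -2.61 per kb, at percentile 0.505. Not divided by its 8493 bases of merged exons, it lay at percentile 3.47, and the precision of so weak a level is unknown here. The NF-κB subunit gene Rela had the highest, 5.50 per kb. The interferon regulatory factor genes Irf1 and Irf2 had 4.15 and 1.94 per kb. Of the enhanceosome genes, Rfx5, Rfxap and Rfxank had 1.54, 2.13 and 0.99, and Nfya, Nfyb and Nfyc had 3.24, 2.93 and 2.78.

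The 7 cytosolic and endosomal peptidases examined, which trim or destroy proteasome products, had a median of 4.00 log2 expression per kb. The highest was Lap3, a leucine aminopeptidase, at 5.54, and the lowest was Lnpep at 2.19. Of the 7, 6 lay above the median of all genes. These values are taken as means over vehicle and BMS493 cultures and carry no error.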
